A study of Mus musculus with 4 samples.

Results

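The genes described here encode cytokines, chemokines, their receptors and Toll-like receptors. They were chosen by name from the deposited table of methylation levels: every gene whose name starts with Tlr, Ccl, Cxcl, Ccr, Cxcr or Il followed by a digit, without the Il1rapl genes, which encode synaptic adhesion proteins. This gave 133 genes, called the member genes below, out of 24930 genes with a mean level in the table. They fall into 12 Toll-like receptors, 9 ligands of the interleukin 1 family, 30 other interleukins, 38 interleukin receptors, 17 CC chemokine ligands, 10 CC chemokine receptors, 11 CXC chemokine ligands and 6 CXC chemokine receptors. The choice by name also took in Il18bp, a secreted inhibitor of interleukin 18, and Il4i1, an amino acid oxidase, and both were counted with the other interleukins.

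The methylation levels come from whole-genome bisulfite sequencing, and the tissue was CA1, a field of the hippocampus, of C57B6/J mice aged 117 days. The tested mice carried Tet2+f_Camk2aCre, an allele of the dioxygenase gene Tet2 together with a Cre recombinase driven by the Camk2a promoter, which is active in excitatory forebrain neurons, and 2 libraries were made from them. The other 2 libraries came from Tet2+f mice, which carried the Tet2 allele without Cre, so Cre itself and the reduction of Tet2 cannot be told apart. The series describes the Cre tissue as haploinsufficient for Tet2 in glutamatergic neurons, while the libraries average over all cells of the tissue. Whether 1 mouse or several gave the 2 libraries of a group is not in the labels, so a p-value measures the spread between these libraries only.

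Toll-like receptors sense microbial products and damage signals, and most of them, like the interleukin 1 receptor, act through Myd88 and NF-kappa-B. Many cytokines act on paired receptor chains that signal through JAK kinases and STAT factors, while chemokines act on G-protein-coupled receptors that guide migrating cells. In brain most of these genes are used by microglia, endothelial cells and invading leukocytes. A few have roles in neurons or in brain development, among them Cxcl12 and its receptor Cxcr4, the neuron-made Il34, which maintains microglia, and Cxcl14. DNA methylation is found mainly at CpG dinucleotides, and CpG-dense gene starts are usually free of it while CpG-poor starts and gene bodies carry it.

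Each value is the percent methylation of a region, deposited per region and library, and bisulfite treatment counts 5-methylcytosine and 5-hydroxymethylcytosine together. A gene mean is the unweighted mean of the regions that carry the gene's name and are at most 20 kb long. The member genes held 1217 such regions with a median length of 2237 bp. The table gives no read counts, so the depth behind a level is unknown, and a level of exactly 0% or 100% can rest on few reads. Over all 849014 regions used, the library means were 75.95% and 75.8% in the Tet2+f_Camk2aCre libraries, against 75.7% and 76.1% in the Tet2+f libraries.

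Start sequences of 6 member genes are shown first because they stand near the ends of the range of levels described below. Each is the RefSeq promoter window of GRCm38.p6, 250 bases before to 50 after an annotated start, printed 5′ to 3′ on the gene's strand with every CpG in capitals. The level given for a window is the mean over the whole regions that touch it, which can reach beyond the window. They were taken from the member genes with the 5 lowest and 5 highest gene means and those chosen by role. The first 3 had the lowest start levels of these and the last 3 the highest. Among the other member genes many, such as Cxcr2 at 90.5%, had higher start levels than Ccr4 at 86.6%. Ccl25, at 0.496%, had a lower start level than Cxcr4 and Cxcl12.
Il6st: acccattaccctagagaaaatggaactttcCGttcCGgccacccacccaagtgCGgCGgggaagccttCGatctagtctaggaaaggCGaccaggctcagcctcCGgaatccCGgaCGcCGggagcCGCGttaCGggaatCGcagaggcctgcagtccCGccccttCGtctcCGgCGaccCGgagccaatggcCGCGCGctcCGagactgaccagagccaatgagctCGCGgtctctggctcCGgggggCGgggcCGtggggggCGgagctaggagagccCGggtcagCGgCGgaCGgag
Cxcr4: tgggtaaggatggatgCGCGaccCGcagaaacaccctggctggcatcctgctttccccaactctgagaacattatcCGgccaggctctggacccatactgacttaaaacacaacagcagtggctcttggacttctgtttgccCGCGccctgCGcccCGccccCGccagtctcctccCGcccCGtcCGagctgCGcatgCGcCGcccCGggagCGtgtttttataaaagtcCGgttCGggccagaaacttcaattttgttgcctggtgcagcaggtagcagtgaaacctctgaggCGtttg
Cxcl12: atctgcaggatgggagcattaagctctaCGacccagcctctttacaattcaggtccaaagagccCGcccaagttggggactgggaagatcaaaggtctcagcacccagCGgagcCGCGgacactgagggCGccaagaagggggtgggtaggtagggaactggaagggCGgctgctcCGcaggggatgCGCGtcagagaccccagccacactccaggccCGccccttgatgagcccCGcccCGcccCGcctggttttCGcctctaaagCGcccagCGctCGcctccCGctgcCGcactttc
Ccr4: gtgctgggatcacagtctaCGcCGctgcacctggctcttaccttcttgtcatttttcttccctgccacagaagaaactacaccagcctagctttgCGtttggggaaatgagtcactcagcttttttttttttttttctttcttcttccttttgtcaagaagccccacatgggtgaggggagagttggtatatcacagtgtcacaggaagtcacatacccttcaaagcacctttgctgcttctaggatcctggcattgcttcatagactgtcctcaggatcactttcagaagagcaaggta
Il2: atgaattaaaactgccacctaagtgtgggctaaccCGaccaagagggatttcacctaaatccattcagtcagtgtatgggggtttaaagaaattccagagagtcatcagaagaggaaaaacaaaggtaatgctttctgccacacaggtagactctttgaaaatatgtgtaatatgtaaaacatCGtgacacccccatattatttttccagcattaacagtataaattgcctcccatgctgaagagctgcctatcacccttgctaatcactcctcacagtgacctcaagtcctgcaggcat
Il22: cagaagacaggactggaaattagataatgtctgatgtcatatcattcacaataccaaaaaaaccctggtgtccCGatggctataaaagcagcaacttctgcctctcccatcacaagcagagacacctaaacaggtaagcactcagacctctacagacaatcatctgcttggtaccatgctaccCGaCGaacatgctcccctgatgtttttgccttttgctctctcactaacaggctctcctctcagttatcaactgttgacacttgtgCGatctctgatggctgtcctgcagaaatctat

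The Il6st window lies at chr13:112463820-112464119 on the plus strand and holds 33 CpGs, a number reached by 8.38% of all RefSeq promoter windows. Il6st encodes gp130, the signalling chain shared by the interleukin 6 family receptors. The level over this window was 0.872% and 0% in the Tet2+f_Camk2aCre libraries, against 0% and 0.267% in the Tet2+f libraries. The Cxcr4 window, at chr1:128592250-128592549 on the minus strand, holds 20 CpGs and had levels of 0% and 0.417% in the Tet2+f_Camk2aCre libraries, against 0.595% and 2.38% in the Tet2+f libraries. The Cxcl12 window, at chr6:117168285-117168584 on the plus strand, also holds 20 CpGs and had 1.25% and 1.54% with Cre, against 1.68% and 1.35% without. As many CpGs as in these windows were found in 27.0% of all promoter windows. All 3 starts were thus nearly free of methylation in every library.

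The other 3 windows are CpG-poor and were methylated in every library. The Ccr4 window, at chr9:114496495-114496794 on the minus strand, holds 3 CpGs and lies 8932 bp from the 5′ end of the gene as RefSeq draws it. Its level was 88.8% and 88.0% in the Tet2+f_Camk2aCre libraries, against 87.2% and 82.4% in the Tet2+f libraries. Ccr4 is the receptor for Ccl17 and Ccl22 on T cells. The Il2 window, at chr3:37125905-37126204 on the minus strand, holds 2 CpGs and had 88.7% and 90.1% with Cre, against 91.2% and 90.6% without. Il2 encodes the T cell growth factor interleukin 2. The Il22 window, at chr10:118204714-118205013 on the plus strand, holds 4 CpGs, lies 380 bp from the gene's 5′ end and had 92.2% and 91.2% with Cre, against 92.1% and 91.7% without. Il22 encodes a cytokine of T cells and innate lymphoid cells that acts on epithelium.

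Across the family the member genes were highly methylated. The median gene mean over the 4 libraries was 79.9% for the member genes, against 73.8% for all genes, and 64 of 133 member genes (48.1%) lay above 80%, against 29.7% of all genes. Only 8 member genes (6.02%) lay below 50%, against 15.5% of all genes. Il11ra1 is among the 8, but averaged 69.5% over the 7 of its 49 regions that lie at its RefSeq gene position. These shares are descriptions of a list chosen by name and carry no test.

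**Figure D1:**
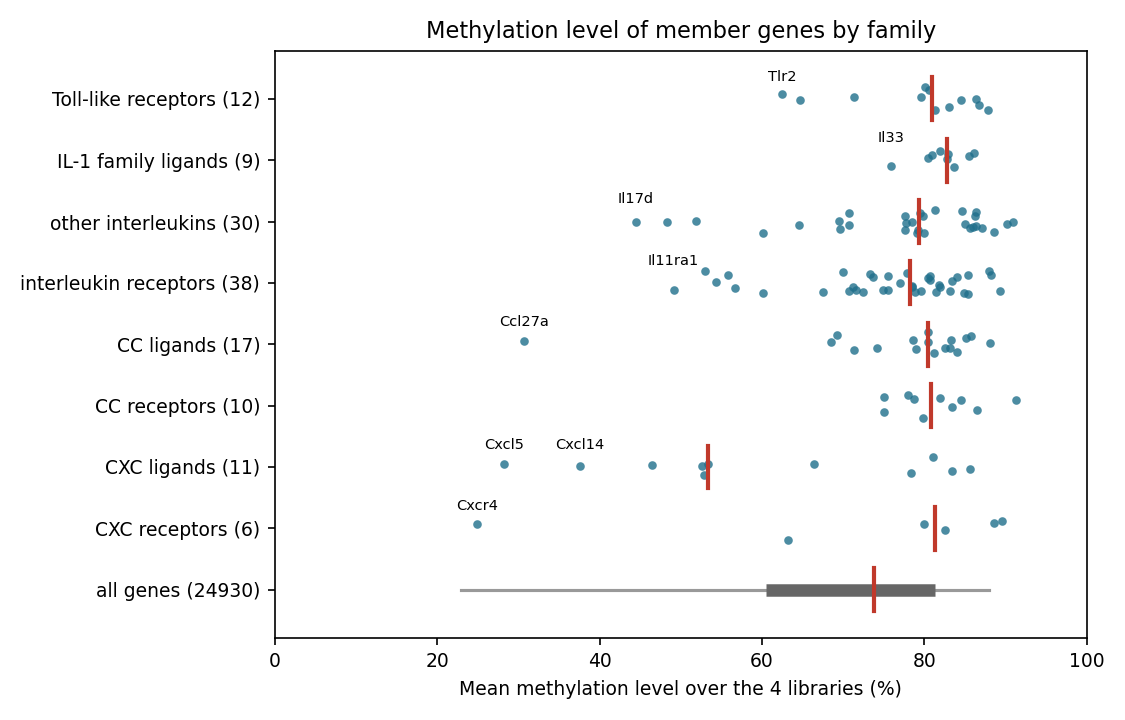
Mean methylation level over the 4 libraries in percent, 1 point per member gene, by family with the number of genes in brackets; red bars are medians, and for all genes the thick grey line spans the lower to the upper quartile and the thin line the 5th to 95th percentile. The CXC ligands have the lowest median, 53.4%, and the other 7 families have medians between 78.2% and 82.7%.

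Of the Toll-like receptors, Tlr2, which recognises bacterial lipoproteins, had the lowest gene mean. Its levels were 63.4% and 63.5% in the Tet2+f_Camk2aCre libraries, against 62.6% and 60.2% in the Tet2+f libraries. Tlr9, the receptor for unmethylated CpG DNA, followed with 66.7% and 62.8% with Cre, against 65.3% and 64.0% without. Tlr3, which senses double-stranded RNA, had 79.7% and 78.8% with Cre, against 79.7% and 80.2% without. Tlr2 and Tlr9 overlapped, while Tlr5, the flagellin receptor, lay above both and below Tlr3 in every library. Tlr4, the receptor for bacterial endotoxin, had 83.6% and 83.0% with Cre, against 82.9% and 82.8% without. The 12 receptors ranged up to 87.8% for Tlr13, a sensor of bacterial ribosomal RNA, with a median of 81.0%. From Tlr3 upward, the libraries of each gene overlapped those of the next in this order. Of the 1217 member regions, 151 lie outside the RefSeq position of the gene they are named for, in 13 genes. Ccl1 has only 3 of its 49 regions at that position, Ccr9 5 of 23 and Cxcr5 9 of 21. Tlr4 has 5 of 26, and those 5 gave 78.8% and 80.8% with Cre, against 81.0% and 80.04% without.

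Interleukin 1 family ligands formed the narrowest group, between 75.9% and 86.1% with a median of 82.7%. Il33, an alarmin made by oligodendrocytes and astrocytes in brain, was the lowest of them, with 75.2% and 76.6% in the Tet2+f_Camk2aCre libraries, against 75.6% and 76.2% in the Tet2+f libraries. Il1b, the main inflammatory cytokine of the family, had 86.6% and 82.1% with Cre, against 82.5% and 83.3% without. None of its 9 genes held a region below 20%.

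Among the other interleukins the levels ran from 44.5% to 90.9%. Il17d, a cytokine of the interleukin 17 family, was lowest, with 45.7% and 43.5% in the Tet2+f_Camk2aCre libraries, against 43.0% and 45.7% in the Tet2+f libraries. Il6, the acute-phase cytokine, had 71.3% and 72.0% with Cre, against 70.5% and 69.1% without. Il34 averaged 77.5% and 77.4% with Cre, against 77.4% and 78.0% without, over 37 regions. Il10, the anti-inflammatory cytokine, had 76.2% and 81.5% with Cre, against 81.6% and 80.2% without, so 1 Cre library stood below the other 3. Il22 and Il2 were the highest interleukins: Il22 had 92.7% and 90.8% with Cre, against 88.3% and 91.6% without. Il2 is a single region, the one over its start given above, and its libraries overlapped those of Il22.

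Interleukin receptors had gene means between 49.1% and 89.3% with a median of 78.2%, close to the ligands. The 49.1% belongs to Il11ra1, of which only 7 of 49 regions lie at its RefSeq position, and those 7 averaged 69.5%. The receptor starts, however, had the lowest median promoter level of the families. The promoter level, the mean over all regions that touch 2000 bp before to 500 bp after the start, had a median of 51.7% in the receptors, against 76.5% in all member genes and 60.9% in all promoters tested. A promoter level below 50% was found in 18 of 38 receptors (47.4%), against 33 of 133 member genes (24.8%), receptors included, and 45.7% of all promoters. In this share the receptors were thus near promoters in general. Among the lowest were Il6st with a mean promoter level of 12.5%, Il3ra, the interleukin 3 receptor chain, with 17.5%, and Il13ra1 with 19.8%. Il1rap, the accessory chain of the interleukin 1 receptor, had 24.9%. Il1r1 itself, the signalling receptor for interleukin 1, had 86.5% and 81.6% in the Tet2+f_Camk2aCre promoters, against 82.9% and 82.6% in the Tet2+f promoters. By this measure Il1r1 lay far above its accessory chain in every library. The regions touching another annotated start of Il1r1, 2600 bp from the gene's 5′ end, had 75.8% and 72.7% with Cre, against 58.6% and 75.9% without. Il1r1 also holds 1 region of 279 bp with a mean level of 0.744%.

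Chemokine ligands of the CC type had a median gene mean of 80.5%. Ccl27a, the skin chemokine that acts on Ccr10, was the exception, with 28.8% and 31.9% in the Tet2+f_Camk2aCre libraries, against 31.6% and 30.4% in the Tet2+f libraries. Ccl27a and the receptor gene Il11ra1 have near-identical copies on chromosome 4, so reads could be split among the copies and these levels are uncertain. Ccl5, a T cell and monocyte attractant, had 79.8% and 83.8% with Cre, against 79.9% and 81.1% without. Ccl2, the main monocyte attractant, carries another name in the table, and the 1 region at its position had 67.7% and 73.4% with Cre, against 69.5% and 61.1% without. The CC receptors had a median of 80.8%. Ccr4 had the highest gene mean of all 133, with 90.9% and 91.6% with Cre, against 91.2% and 91.3% without. The first 5 in level, from Ccr4 and Il22 through Il2 and Cxcr1 to Il6st, lay between 89.3% and 91.2%, and neighbours in this order overlapped.

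CXC ligands and receptors held the lowest gene means. Cxcr4 was lowest of all, with 24.8% and 24.99% in the Tet2+f_Camk2aCre libraries, against 25.5% and 24.5% in the Tet2+f libraries. Cxcl5, a neutrophil attractant, followed with 28.6% and 27.9% with Cre, against 29.5% and 27.1% without. Cxcl14, a chemokine that some interneurons make, had 37.3% and 36.6% with Cre, against 36.6% and 39.8% without. Cxcl12 had 47.0% and 46.4% with Cre, against 44.5% and 47.7% without. Cxcr4 lay below Cxcl5 in every library, and Cxcl14 above Cxcl5 and Ccl27a, which overlapped each other. Cxcl10, an interferon-induced T cell attractant, is named for its neighbour Art3 in the table, and the regions at its position had 65.9% and 67.2% with Cre, against 68.7% and 65.5% without. At the other end of the receptors, Cxcr1, which responds to neutrophil attractants, had 90.2% and 88.7% with Cre, against 90.1% and 89.1% without.

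A gene mean depends on how many of its regions lie at an unmethylated start. Cxcr4 is the clearest case: 5 of its 7 regions had mean levels below 20%, over 2726 bp in all. The region over the start held 0% and 0.417% with Cre, against 0.595% and 2.38% without, while the region at chr1:128588885-128589818, near the 3′ end, held 79.1% and 83.8% with Cre, against 79.2% and 76.7% without. Il6st shows the reverse, because its unmethylated start regions carry no gene name in the table. Its 18 named regions averaged 89.6% and 89.7% with Cre, against 88.9% and 89.2% without, and this mean leaves the start out. Of 102 member genes with a RefSeq promoter window, 5 had no region of their own name there: Ccr1l1, Il18, Il5ra, Il6st and Tlr11.

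Unmethylated regions were rarer in the member genes than among all regions with a gene name. Of the 1217 regions, 89 (7.31%) had a mean level below 20%, against 10.5% of all named regions, and 40 of 133 genes (30.1%) held at least 1, against 55.2% of all genes. The share of genes also depends on how many regions each holds, and start regions without a gene name are not counted. Among the families, the CXC ligands held the largest share, 12 of 46 regions (26.1%), while 45 of the 607 interleukin receptor regions (7.41%) were below 20%. Of these 45, 13 carry the name of Il11ra1, which has only 7 of its 49 regions at its RefSeq position. The highly methylated share did not stand apart: 728 regions (59.8%) were above 80%, against 58.5% of all named regions.

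The difference from other genes was at the start. Within 250 bp of the gene start, 46 member regions had a median level of 9.14%, with quartiles of 0.955% and 69.6%, against a median of 0.556% for all genes. Between 250 and 1000 bp downstream the median was 38.0% over 56 member regions, against 0.943% for all genes. Between 1000 and 2000 bp it was 81.0% over 59 member regions, against 34.5% for all genes. Beyond 20000 bp the medians were 83.6% in the member genes and 84.6% in all genes. The dip at the start was thus shorter and shallower in the member genes, and gene bodies had like levels.

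**Figure D2:**
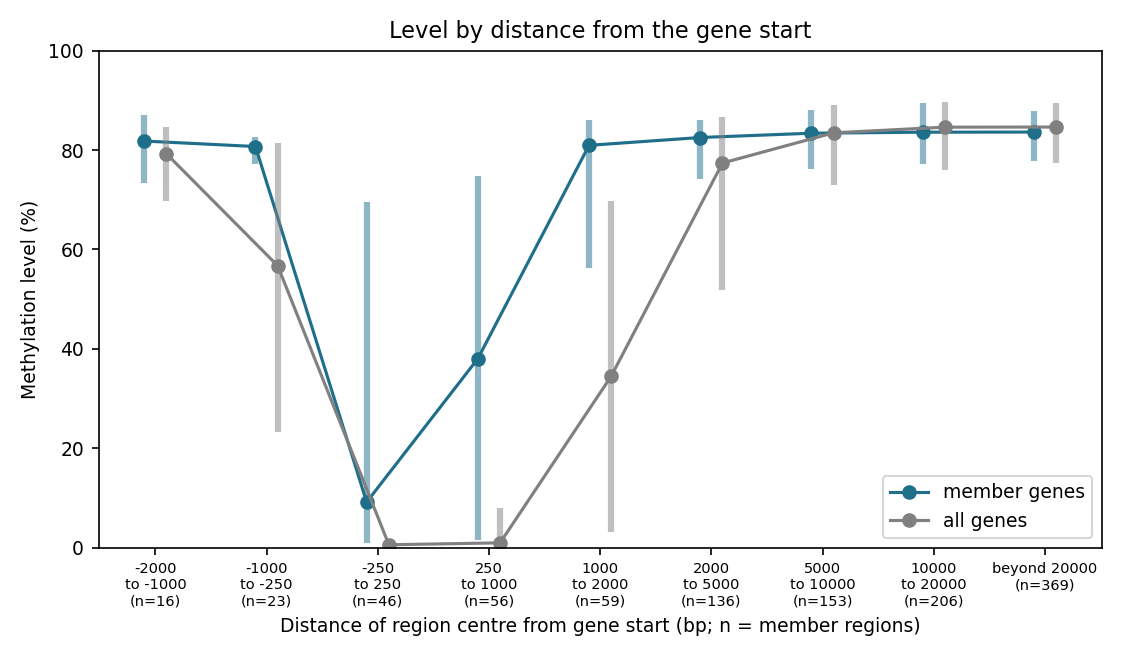
Methylation level in percent against the distance of a region's centre from the RefSeq gene start in bp; points are medians and bars span the lower to the upper quartile over regions, with member genes in blue, all genes in grey and the number of member regions under each bin. In the bin from 250 to 1000 bp the member median is 38.0%, against 0.943% for all genes.

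CpG content of the start went with this. The 300-base windows of the member genes held a median of 4 CpGs, against 7 in all 26712 promoter windows with a level. At least 8 CpGs were found in 27 of the 102 member windows (26.5%), against 49.5% of all windows. Those 27 CpG-rich member windows had a median level of 9.34% and 18 of them (66.7%) lay below 20%, against a median of 6.52% and 69.6% below 20% for CpG-rich windows in general. The 27 windows with at most 2 CpGs had a median of 82.4%, against 81.1% for all such windows, the 48 with 3 to 7 had 81.5%, against 78.2%, and none of these member windows lay below 20%. For a given CpG content the member windows were therefore close in level to other windows, and fewer of them were CpG-rich. These levels are means over whole regions that touch a window. A window with 0 CpGs, such as that of Tlr9, therefore also has a level, 82.4%. Of the 102 windows, 68 lie at the 5′ end of the gene as RefSeq draws it, and that of Il1rl1 lies 24706 bp away. Across the 102 member windows, which share the same 4 libraries, Pearson's r of CpG count and level was −0.80 and Spearman's rho −0.64, against −0.79 and −0.77 across all windows. Both are given as descriptions. CG was searched as a 2-base string, which reads the same on both strands, and was present in 98.0% of member windows and 94.5% of all windows.

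**Figure D3:**
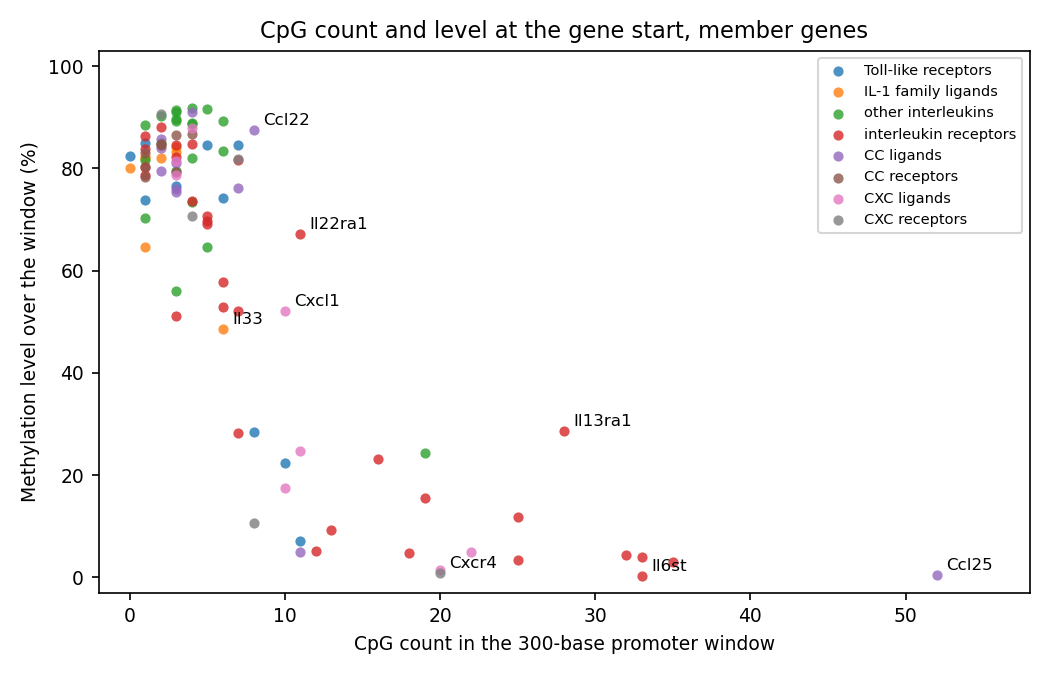
Methylation level in percent over the regions that touch the 300-base promoter window, against the CpG count of that window, 1 point per member gene, coloured by family (102 genes). No window with fewer than 8 CpGs lies below 20%, while Ccl22, Il22ra1 and Cxcl1 are CpG-rich and above 50%.

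Some starts went against the general relation. Ccl22, a ligand of Ccr4, has 8 CpGs in its window and a level of 87.4%. Il22ra1, a receptor chain for interleukin 22, has 11 CpGs and 67.2%, and Cxcl1, a neutrophil attractant, has 10 CpGs and 52.0%. Il13ra1, a receptor chain for interleukin 13, has 28 CpGs and 28.6%. That level averages 2 regions, of which only 1 carries the gene's name. Il13ra1 holds 2 named regions below 20%, the lowest at 0.584%, so the 28.6% need not describe its own start region. The gene lies on the X chromosome, and the labels used here do not give the sex of the mice. Il33, with only 6 CpGs, had an intermediate level of 48.6%. At the dense end, Ccl25, a thymus chemokine, has 52 CpGs and had levels of 0% and 0.969% in the Tet2+f_Camk2aCre libraries, against 0.244% and 0.771% in the Tet2+f libraries.

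The design compares Tet2+f_Camk2aCre with Tet2+f tissue, and the targeted gene was examined first. The Tet2 gene mean was 79.7% and 78.3% with Cre, against 79.3% and 78.7% without, a difference of −0.05 points (limma adjusted p = 0.999). Its promoter had 18.2% and 5.68% with Cre, against 8.50% and 6.20% without (limma adjusted p = 0.986). A methylation level does not report the deletion of an allele, so these values check nothing about the labels. The promoter of Camk2a, the gene whose promoter drives Cre, had 69.7% and 66.6% with Cre, against 30.5% and 30.4% without, and did not pass either (limma adjusted p = 0.376).

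None of the 133 member genes passed the test between the groups. In limma, fitted on a logit scale over all 24930 gene means, the smallest adjusted p of a member gene was 0.815, and the background of calls was 0.0% of all genes. At an unadjusted p under 0.05 stood 11 member genes (8.27%), against 5.31% of all genes. The 67 genes higher and 66 lower with Cre had a median difference of 0.01 points, against 0.03 points over all genes. The mean over the member genes was 75.7% and 75.5% in the Tet2+f_Camk2aCre libraries, against 75.4% and 75.8% in the Tet2+f libraries (two-sided exact permutation p = 1 over 6 arrangements, where the smallest possible p is 0.333). The member mean thus moved by less than its replicates did. Without Tet2+f replicate 1 the median difference was −0.31 points, with 50 genes higher and 83 lower, and that over all genes −0.12 points.

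Whether the 2 libraries of one group all lay above those of the other was counted as well. This held for 19 member genes higher with Cre (14.3%), where the background is 17.1% of all genes, and for 30 lower with Cre (22.6%), where it is 16.0%. The first share is near its background and the second is above it, and neither was tested. The interleukin receptors gave 11 of the 30 genes and the CXC ligands 7.

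**Figure D4:**
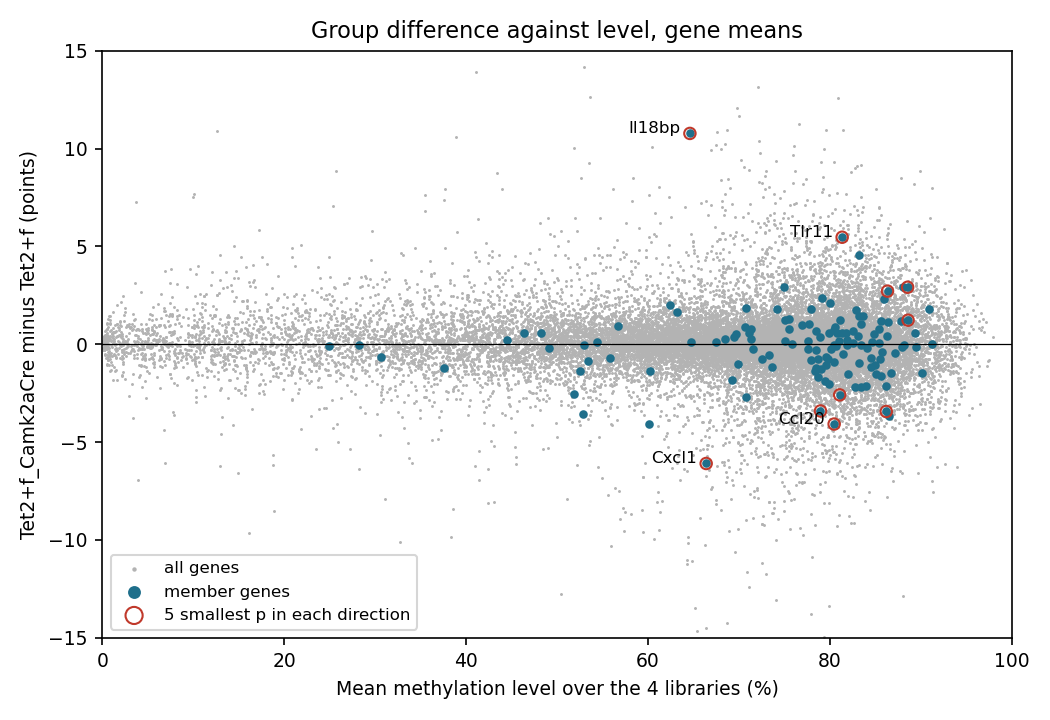
Difference in gene mean, Tet2+f_Camk2aCre minus Tet2+f in percentage points, against the mean level over the 4 libraries in percent; grey points are all genes (22 lie outside the 15-point limits), blue points the member genes, and red circles the 5 member genes with the smallest p in each direction. Il18bp, higher with Cre by 10.8 points, and Cxcl1, at −6.09, lie farthest from 0.

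The member genes with the smallest p on the higher side were cytokines, a Toll-like receptor and a chemokine receptor. Il9, a T cell and mast cell cytokine, had 88.1% and 87.3% in the Tet2+f_Camk2aCre libraries, against 85.3% and 84.6% in the Tet2+f libraries, 2.72 points higher (limma adjusted p = 0.820). Tlr11, which recognises profilin of protozoan parasites, had 83.2% and 85.01% with Cre, against 79.8% and 77.4% without, 5.47 points higher in its single region (limma adjusted p = 0.831). Il20 had 91.0% and 89.0% with Cre, against 86.5% and 87.6% without (limma adjusted p = 0.937). In all 3 genes both Cre libraries lay above both others, as in 17.1% of all genes. Il18bp showed the widest difference, 73.0% and 66.9% with Cre, against 63.0% and 55.4% without, 10.8 points (limma adjusted p = 0.938). It rests on 1 region, chr7:102016210-102019060, with an SD of 4.31 points between the Cre replicates and 5.40 points between the others, and its difference ranged from 6.96 to 14.6 points with 1 library left out. Cxcr2, a receptor for neutrophil attractants, had 89.0% and 89.4% with Cre, against 88.4% and 87.6% without (limma adjusted p = 0.947). By promoter level Il9 was 1.97 points and Il18bp 2.50 points higher with Cre, without overlap. In Tlr11 (−0.51 points), Il20 (1.48 points) and Cxcr2 (−0.17 points) the promoter levels of the groups overlapped.

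On the lower side, 4 of the 5 genes were chemokines. Il31, an itch-inducing T cell cytokine, had 84.6% and 84.4% in the Tet2+f_Camk2aCre libraries, against 87.3% and 88.5% in the Tet2+f libraries, a difference of −3.43 points (limma adjusted p = 0.815). Cxcl9, an interferon-induced T cell attractant, had 80.2% and 79.4% with Cre, against 82.3% and 82.4% without (limma adjusted p = 0.820). Ccl20, the ligand of Ccr6, had 79.0% and 77.9% with Cre, against 83.5% and 81.5% without, −4.08 points (limma adjusted p = 0.875). The groups did not overlap in any of them. Over all genes 16.0% were lower with Cre without overlap, and these genes were picked by their p. Ccl11, the eosinophil attractant eotaxin, had 78.2% and 76.3% with Cre, against 81.1% and 80.3% without (limma adjusted p = 0.892). Cxcl1 had 65.5% and 61.2% with Cre, against 69.8% and 69.0% without, −6.09 points (limma adjusted p = 0.924). Its start region, chr5:90891052-90891815, had 43.7% and 46.1% with Cre, against 56.6% and 54.7% without, while the second region had 87.4% and 76.2% with Cre, against 83.1% and 83.4% without. Over all regions that touch the 300-base promoter window of Cxcl1 the groups overlapped, with 40.8% and 54.9% with Cre, against 60.3% and 52.0% without. The promoter level overlapped too, so the gap depends on which regions are averaged, and without single libraries it ranged from −8.28 to −3.91 points. The promoter levels of Il31 (0.31 points), Cxcl9 (−0.50 points) and Ccl11 (−0.05 points) overlapped as well. Ccl20 holds the same regions in both measures and did not overlap.

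Genes chosen for their role showed small differences with overlapping libraries in most cases. Il6 was higher with Cre by 1.85 points (limma adjusted p = 0.959) and Tlr2 by 2.01 points (limma adjusted p = 0.983), and Il6st by 0.56 points (limma adjusted p = 0.984). With 1 library left out, the difference ranged from 1.14 to 2.56 points in Il6 and from 0.82 to 3.19 points in Tlr2. In Il6, Tlr2, Il6st and Tlr4 both Cre libraries lay above both others, and in Tlr3 both lay barely below. Over all genes 17.1% were higher and 16.0% lower with Cre without overlap. For Tlr3, Tlr4, Tlr9, Il1b, Il1r1, Il10, Il33, Il34, Ccl5, Cxcl12, Cxcl14 and Cxcr4 the difference lay between −2.05 and 1.46 points, each with a limma adjusted p of 0.999. The difference in Tlr4 was 0.43 points over all its named regions and −0.73 points over the 5 at its RefSeq position.

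The CXC ligands leaned one way. Of 11 ligand genes, 10 had a lower mean with Cre and Cxcl12 alone a higher one, with a median difference of −1.37 points, against 0.03 points over all genes, of which 51.1% were higher. In 7 ligands (63.6%) both Cre libraries lay below both Tet2+f libraries, where the background is 16.0%. None passed the adjusted threshold, and 4 had an unadjusted p under 0.05: Cxcl1, Cxcl9, Cxcl13 and Cxcl16. Of the 46 single regions of these genes, 8 were higher with Cre. The lean was counted after its values were seen and was not tested.

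**Figure D5:**
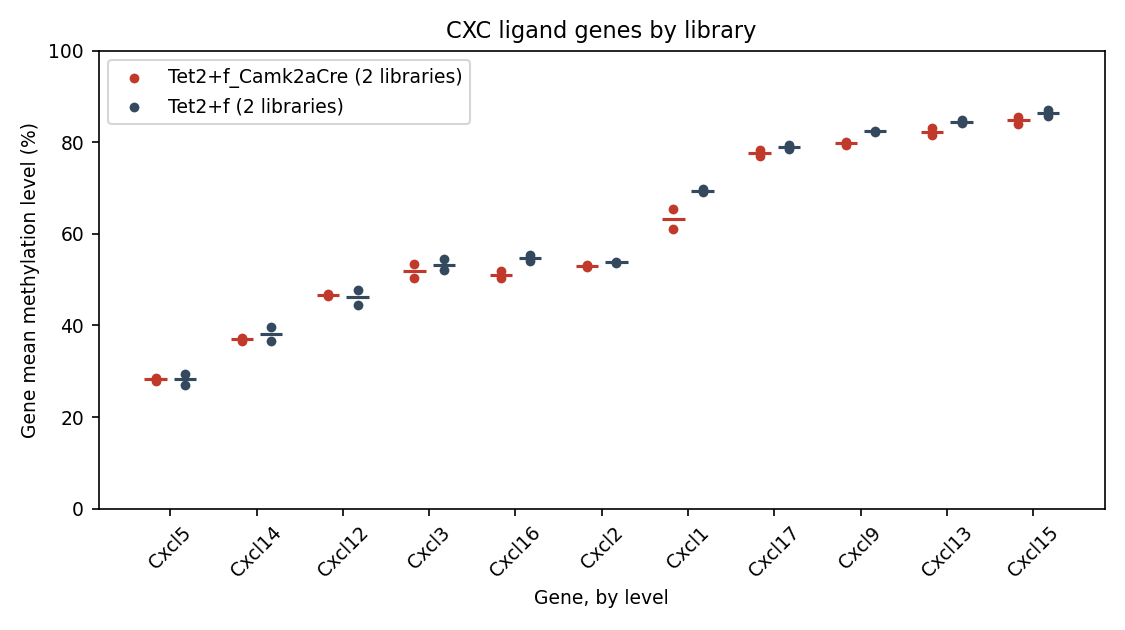
Gene mean methylation level in percent of the 11 CXC ligand genes, ordered by level, 1 point per library with Tet2+f_Camk2aCre in red to the left of Tet2+f in dark blue and a line at each group's mean. The red pair lies below the dark pair without overlap in 7 genes.

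Values of the individual ligands show how small the gaps were. Cxcl16, a membrane-bound chemokine, had 51.9% and 50.3% in the Tet2+f_Camk2aCre libraries, against 55.3% and 54.0% in the Tet2+f libraries, −3.55 points. Cxcl13, the B cell attractant, had 83.0% and 81.7% with Cre, against 84.2% and 84.9% without, −2.19 points. Cxcl15, a lung chemokine of mice, had 84.1% and 85.5% with Cre, against 85.7% and 87.1% without. The groups did not overlap in these 3 genes (background 16.0%), but those of Cxcl15 nearly met. Cxcl17, a mucosal chemokine, had 78.3% and 77.0% with Cre, against 78.5% and 79.5% without, −1.37 points. Cxcl2, a neutrophil attractant like Cxcl1, had 52.8% and 53.2% with Cre, against 53.9% and 53.7% without, −0.84 points. Cxcl3, its close relative, overlapped, with 53.4% and 50.4% with Cre, against 52.0% and 54.4% without.

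Most of these ligands are neighbours, so they are not separate observations. Within chr5:90758799-92328619 lie 6 of them, Cxcl1, Cxcl2, Cxcl3, Cxcl5, Cxcl9 and Cxcl15, all lower with Cre, with a median of −1.49 points. The 20 other genes in that stretch had a median of −0.17 points, with 13 lower and 7 higher. Pf4 and Ppbp, a pair of CXC ligands under other names in the same stretch, went the other way with overlap. Pf4, platelet factor 4, had 87.5% and 90.6% with Cre, against 88.4% and 87.9% without, and Ppbp had 78.6% and 81.0% with Cre, against 77.9% and 78.9% without. At the promoters 9 of the 11 ligands were lower with Cre, and 2 without overlap (background 16.9%). Without single libraries, 8 to 10 of the 11 were lower, not always the same genes: without Tet2+f replicate 1 Cxcl12 was at −1.01 points. The count was 8 without Tet2+f_Camk2aCre replicate 2, and 9 when the libraries were centred by their medians over regions.

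Markers of cell types were measured beside this. All 5 microglia marker genes with a gene mean were lower with Cre, by a median of −1.11 points. All 7 markers of CA1 pyramidal neurons, Camk2a among them, were higher, by a median of 0.82 points, with none called by limma. The groups did not overlap in 1 of the 5 (background 16.0%) and 3 of the 7 (background 17.1%). At the promoters 3 of 6 microglia markers and 5 of 7 CA1 markers were higher, with medians of −0.14 and 0.25 points. By gene mean the endothelial and oligodendrocyte lists each had 3 of 5 genes higher and the astrocyte list 1 of 5. The interneuron list had 5 of 6 higher and the list for dentate gyrus and CA3 4 of 6. The part of cell makeup in the lean of the CXC ligands was not tested. Of the other families, 8 of 12 Toll-like receptors and 20 of 30 other interleukins were higher with Cre, with medians of 0.43 and 0.55 points, while 16 of 38 interleukin receptors were higher, with a median of −0.06 points. The CC ligands were split 9 higher and 8 lower, the CC receptors 5 and 5, the interleukin 1 family ligands 4 and 5, and the CXC receptors 4 and 2. These leans depend on single libraries. Without Tet2+f replicate 1, 6 of 12 Toll-like receptors and 13 of 30 other interleukins were higher, with medians of −0.23 and −0.25 points, and without Tet2+f replicate 2 the interleukin receptors had 22 of 38 higher and a median of 0.04 points.

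At the promoters no gene was called either. None of 133 member promoters passed (limma, smallest adjusted p = 0.919, background 0.0% of 31815 promoters), and 9 (6.77%) had an unadjusted p under 0.05, against 5.36% of all. The groups did not overlap in 21 promoters higher with Cre (15.8%, background 16.8%) and 21 lower (15.8%, background 16.9%). The mean over the member promoters was 66.4% and 66.2% with Cre, against 66.1% and 66.3% without (two-sided exact permutation p = 0.667, the smallest possible being 0.333). The smallest p on the higher side belonged to Ccl9, a macrophage chemokine, with 84.0% and 81.4% with Cre, against 77.6% and 74.95% without. Cxcr3, the receptor for Cxcl9, had 73.0% and 73.2% with Cre, against 68.3% and 68.4% without, and Il7r, the interleukin 7 receptor, 82.1% and 83.1% with Cre, against 79.6% and 76.05% without. By gene mean Cxcr3 differed by 0.57 points, with overlap. On the lower side stood Ccl20, whose promoter holds the same regions as its gene mean, Il22ra2, a decoy receptor for interleukin 22, with 84.8% and 87.0% with Cre, against 88.6% and 88.8% without, and Tlr8, a sensor of single-stranded RNA, with 72.8% and 71.3% with Cre, against 75.2% and 76.3% without. Each of these 6 promoters had a limma adjusted p of 0.919.

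Single regions gave no call either. Of the 1217 member regions, 604 (49.6%) were higher with Cre and 56 had an unadjusted p under 0.05, where the background is 4.6% of 849014 regions, and none passed (limma, smallest adjusted p = 0.937, background of calls 0.0%). Il1r1 held a region of the 3 smallest p on each side. At chr1:40229258-40231854 it had 92.2% and 94.0% with Cre, against 85.5% and 88.1% without, and at chr1:40308321-40309305 it had 94.1% and 88.9% with Cre, against 98.6% and 97.8% without. Its accessory chain gene Il1rap, at chr16:26625024-26628601, had 79.6% and 80.3% with Cre, against 69.8% and 71.5% without. Differences of 6 to 9 points in opposite directions thus stood within the receptor for interleukin 1.

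The remaining regions with the smallest p were in interleukin receptor genes, which hold 607 of the 1217 member regions. Il20ra, a chain of the interleukin 20 receptor, at chr10:19727456-19730148 had 92.2% and 92.6% with Cre, against 88.2% and 86.7% without. Il17rc, a chain of the interleukin 17 receptor, at chr6:113478565-113479767 had 80.9% and 82.7% with Cre, against 89.7% and 90.5% without. A nearly unmethylated region of Il15ra, the interleukin 15 receptor, at chr2:11705927-11706494 had 0.556% and 0.954% with Cre, against 2.42% and 2.38% without. On the logit scale the −1.65 points of Il15ra near 0 ranked close to the −8.28 points of Il17rc, and each of these regions had a limma adjusted p of 0.937.

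Regions over 20 kb stand apart because they span multi-copy sequence on chromosome 4, where copies of Ccl21, Ccl19 and Ccl27 lie under predicted gene names and reads may not be placed uniquely. There were 7 of them over family genes, and none carried the name of a member gene. The region over Ccl21b at chr4:42030003-42194800, 164798 bp long, had 82.4% and 86.7% with Cre, against 100% and 100% without (limma adjusted p = 0.937). The region over Ccl19-ps2 at chr4:42466073-42572015 had 87.5% and 87.7% with Cre, against 60.0% and 80.6% without, and the one over Ccl21d and Ccl19-ps1 at chr4:41874965-41962123 had 93.5% and 91.0% with Cre, against 81.8% and 75.6% without (limma adjusted p = 0.937 each). Between replicates the SD reached 14.5 points in the Ccl19-ps2 region, and the 3 went in different directions. In the remaining 4 the groups overlapped.

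The signalling genes downstream of these receptors were measured in the same fit. Of 24 genes of Toll-like and interleukin 1 receptor signalling, 23 had a gene mean, 9 higher and 14 lower with Cre, with a median of −0.07 points and none called. Rela, the p65 subunit of NF-kappa-B, had 54.9% and 55.8% with Cre, against 53.6% and 54.1% without, and Irak1, a kinase bound by Myd88, had 42.5% and 42.5% with Cre, against 43.3% and 44.4% without. Of 10 JAK-STAT genes, 9 had a gene mean, 4 higher and 5 lower, none called. Stat6, which carries interleukin 4 signals, had 65.2% and 66.5% with Cre, against 67.0% and 69.1% without (limma adjusted p = 0.968). Of 7 chemokine and atypical receptor genes under other names, Cxcr7 among them as Ackr3, 4 were higher and 3 lower, and of 6 other cytokines, Tnf and interferon genes among them, 3 and 3, none called. A promoter level below 50% was found in 22 of the 24 signalling genes of the first list, against 2 of 12 Toll-like receptors. It was found in 9 of the 10 JAK-STAT genes, against 18 of 38 interleukin receptors, and in 45.7% of all promoters.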

How the data were processed

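Whole-genome bisulfite libraries of CA1 tissue, 2 labelled Tet2+f_Camk2aCre and 2 labelled Tet2+f, came from a Swift Accel-NGS kit and were read on a HiSeq X, per the labels' protocols. The submitters' processing notes name Bismark 0.19.0, Trim Galore 0.4.5, FastQC 0.11.5, edgeR and build mm10, with no role. The authors deposited 1 percent methylation value per library for each region, and at most 1 gene name per region. How regions were drawn, CpGs averaged or coverage filtered is not given in the sources used here. Averaging by region hides single CpGs, and thinly covered regions weigh as much as deep ones.

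Of 849172 regions, 158 lacked a value in a library and were left out. Gene means were taken over regions of at most 20 kb. A test on read counts was planned first and could not be run on percent values. limma 3.58.1 in R 4.3.3 was fitted instead on log2((level + 0.01) / (1 − level + 0.01)) with Benjamini-Hochberg adjustment at 0.05, over all 24930 gene means, 31815 promoters (2000 bp upstream to 500 bp downstream) and 849014 regions. Single means were compared by exact permutation of the 4 libraries. Simulated shifts in 200 genes between 40% and 75% were recovered after adjustment in 0% of genes at 10 points and in 71.5% at 20 points, where 8 unchanged genes also passed. For promoters, 0% were recovered at 20 points. No shift was simulated above 75%. Most member genes lie there, with a median of 79.9%, so these rates do not describe them. Gene positions and promoter windows came from RefSeq tables of GRCm38.p6, which all 133 genes matched, Cxcr7 and Il28ra by synonym, and 102 with a window.

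The member genes, the pathway and marker lists and the named genes were chosen with earlier results of these data known. Named genes are the 5 smallest p in each direction, the 5 lowest and highest means, 18 genes chosen by role, 1 of which is not reported here, and the 3 regions and promoters with the smallest p in each direction. Other choices of scale, offset, prior, promoter length, region length, weighting, centring and chromosomes were tried, and each library was left out in turn. Python 3.11.15 with pandas 2.3.3, numpy 2.4.6, scipy 1.17.1 and matplotlib 3.10.9 was used.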

Additional observations from a re-analysis of the deposited data

How the results depend on the processing

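No gene mean, member gene mean or single region passed the adjusted threshold under any alternative run, each library left out included. The number of promoters past the threshold was 1 with a trended and robust prior (Camk2a) and 5 with regions over 20 kb kept (smallest limma adjusted p = 0.0433). All 5 rest on the region of 164798 bp over Ccl21b, and the other promoter alternatives gave 0. For the named genes, regions and promoters, 38 differences gave 532 values under alternatives, of which 0 passed (limma adjusted p 0.681 to 1) and 16 turned. Under settings other than a left-out library, Tlr4 turned to −0.73 points at its RefSeq position, an alternative chosen after seeing the data, Il33 to −0.21 when weighted by region length, and Cxcr4 to 0.0054 with libraries centred; the cause was not tested. With 1 library left out, where the lone library was assumed to vary like the others, differences ranged from −0.74 to 3.27 points for Ccl5, −1.01 to 2.16 for Cxcl12, −2.80 to 0.39 for Cxcl14, −0.56 to 0.43 for Cxcr4, −4.67 to 0.58 for Il10, −0.78 to 3.71 for Il1b, −0.30 to 1.46 for Il1r1, −0.67 to 0.68 for Il33, −0.55 to 0.058 for Il34 and −1.84 to 2.09 for Tlr9. The median difference over the member genes ranged from −0.315 to 0.0898 and the difference of their mean levels from −0.201 to 0.151. With the replicate numbers as a block, 0 gene means, 0 promoters and 0 regions passed (smallest limma adjusted p 0.808, 0.909 and 0.954). Same-numbered libraries did not deviate together (correlation 0.02 over gene means), and no pairing was taken from the numbers. No coverage minimum could be tried, because the table holds no coverage, and 2 libraries a group limit what any test can show.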

Other observations

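Several genes of the same families carry other names in the deposited table and so are not among the 133. Il2rg, the chain shared by the receptors for interleukins 2, 4 and 7, lies on the X chromosome and had 87.0% and 85.4% in the Tet2+f_Camk2aCre libraries, against 88.8% and 89.1% in the Tet2+f libraries. Cxcl11, which like Cxcl9 acts on Cxcr3, had 79.2% and 78.9% with Cre, against 79.9% and 79.8% without. The groups did not overlap in these 2 genes, which had no test of their own. Over all gene means 16.0% were lower with Cre without overlap. Ccr10, the receptor of Ccl27a, lies within the regions named for Cntnap1 and had 11.3% and 13.5% with Cre, against 14.3% and 11.2% without, lower than every member gene. Il1a, the second classical interleukin 1, had 83.5% and 84.0% with Cre, against 83.9% and 81.9% without, and Cxcr6 had 88.6% and 89.7% with Cre, against 87.5% and 90.1% without.

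Replicate spread followed the number of regions behind a gene mean. The 47 member genes with 1 to 3 regions had a median within-group SD of 1.54 points, the 44 with 4 to 9 regions 1.16 points, and the 42 with 10 or more 0.707 points. The largest difference between groups was 10.8 points (either sign) in the first class, 4.07 in the second and 2.70 in the third. Of the 5 member genes with the smallest p in each direction, Il9, Tlr11, Il20, Il18bp, Il31, Ccl20, Ccl11 and Cxcl1 belong to the first class.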
